A study of Mus musculus with 6 samples.

Results

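The 10 genes described here are the transcriptional end of the Hippo pathway: the coactivators Yap1 and Wwtr1 (which encodes TAZ), the DNA-binding partners Tead1, Tead2, Tead3 and Tead4, the target genes Ctgf, Cyr61 and Ankrd1, and the kinase gene Lats2, itself a target. They were chosen by name from the 26586 genes of the count table, and 9 of them had enough reads to be tested, while Ankrd1 did not. Total RNA depleted of ribosomal RNA was sequenced from uterine epithelial isolates of mice with the Axin2rtTA and tetOH2BJGFP transgenes, in which the Axin2 promoter drives a doxycycline-dependent nuclear GFP. Ovaries were removed at 4 weeks, doxycycline followed after a 2-week pause, and the uteri came from animals aged 6 weeks, 4 days after doxycycline. Cells were sorted by GFP, and the label Axin2+ names the GFP+ side and Axin2- the GFP- side, with 3 libraries each. All 6 libraries share the transgenes, the ovariectomy and the doxycycline, so no animal with ovaries or without doxycycline enters the comparison. The labels number the libraries by mouse (1 to 3) but also speak of pooled cells. The p-values thus measure the spread between these libraries, which may be smaller than that between animals.

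The Hippo pathway is a kinase relay that holds YAP and TAZ in the cytoplasm. MST kinases activate LATS kinases, and these phosphorylate YAP and TAZ. When the relay is off, as in cells that are stretched, spread or sparse, YAP and TAZ enter the nucleus and bind TEAD proteins, since they cannot bind DNA alone. The complex turns on genes such as Ctgf, Cyr61 and Ankrd1, as well as Lats2, which feeds back on the relay. Much of this control acts on the proteins, and transcript levels do not report their phosphorylation or location.

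The gene counts of the libraries summed to between 49714402 and 59597315. Axin2 itself stood lower in the libraries labelled Axin2+ without passing the test (log2 fold change -0.61, adjusted p = 0.071, edgeR), which goes against the label, so fractions are named below as labelled. The cell content differed between them. Of 12 epithelial markers 12 were higher in the libraries labelled Axin2+ and their summed level was 2394 to 3507 CPM (counts scaled to library size), against 195 to 301 CPM in those labelled Axin2-. Smooth muscle and pericyte markers went the other way, with 11 of 12 lower and summed levels of 247 to 440 against 2467 to 6467 CPM. Stromal fibroblast markers were lower for 9 of 12, at 3197 to 4444 against 10132 to 21153 CPM. Macrophage and leukocyte markers were higher for 6 of 8 and lower for 1, at 564 to 3226 against 59.4 to 316 CPM, and none of all these markers was at 0 reads in a fraction. Endothelial markers were higher for 5 of 8 (224 to 416 against 189 to 232 CPM), and mesothelial markers were higher for 4 of 6 and lower for 1 (169 to 487 against 175 to 225 CPM). Epithelial markers, which define the labelled cell type, were thus low in the libraries labelled Axin2-. Leaving out a library gave 5 to 11 calls for the stromal, 2 to 5 for the endothelial and 1 to 7 for the macrophage and leukocyte markers. With the mouse as a replicate block 3 macrophage and leukocyte markers were higher and 1 lower, and 3 endothelial markers were higher and 1 lower. In such bulk libraries fewer cells of a type and less RNA per cell cannot be told apart, and the part of cell content in the differences below was not tested.

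TEAD proteins recognise the bases CATTCC, or GGAATG on the opposite strand, and these were searched on both strands in the 250 bases before each RefSeq transcript start (GRCm38.p6). Promoter entries were matched for 7 of the 10 genes, with Cyr61 listed under its current symbol Ccn1. No entry was matched for Tead1, Tead4 and Ctgf, so these were not searched. Of their 11 promoters 7 held the motif, against 12.6% of all 32851 promoters in the table. The 7 include 2 overlapping Wwtr1 windows that share 1 motif. Windows and not genes are counted here, so Wwtr1, Tead3 and Lats2 each enter more than once. The windows of the target Cyr61, both coactivators and Tead3 are printed because the results turn on these genes and each window holds the motif, shown in capitals. All are read 5′ to 3′ on the gene's own strand, the minus strand.
Cyr61, chr3:145649986-145650235, motif 103 bases before the start: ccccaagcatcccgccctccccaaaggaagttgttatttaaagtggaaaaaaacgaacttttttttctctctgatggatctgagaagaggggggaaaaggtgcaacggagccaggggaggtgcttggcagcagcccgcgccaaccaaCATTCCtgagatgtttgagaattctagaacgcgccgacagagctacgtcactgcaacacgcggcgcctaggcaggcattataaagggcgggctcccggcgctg
Wwtr1, chr3:57575911-57576160, motif 136 bases before the start: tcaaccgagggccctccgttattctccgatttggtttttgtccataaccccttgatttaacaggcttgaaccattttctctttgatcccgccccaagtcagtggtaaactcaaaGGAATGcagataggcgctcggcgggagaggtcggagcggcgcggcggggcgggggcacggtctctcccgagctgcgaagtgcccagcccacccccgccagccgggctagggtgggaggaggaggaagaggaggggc
Yap1, chr9:8004597-8004846, motif 141 bases before the start: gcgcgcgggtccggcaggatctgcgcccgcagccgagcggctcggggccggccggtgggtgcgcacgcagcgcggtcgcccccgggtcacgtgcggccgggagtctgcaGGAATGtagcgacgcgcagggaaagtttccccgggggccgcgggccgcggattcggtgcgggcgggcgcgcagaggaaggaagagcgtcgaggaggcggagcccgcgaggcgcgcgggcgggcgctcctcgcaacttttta
Tead3, chr17:28350806-28351055, motif 182 bases before the start: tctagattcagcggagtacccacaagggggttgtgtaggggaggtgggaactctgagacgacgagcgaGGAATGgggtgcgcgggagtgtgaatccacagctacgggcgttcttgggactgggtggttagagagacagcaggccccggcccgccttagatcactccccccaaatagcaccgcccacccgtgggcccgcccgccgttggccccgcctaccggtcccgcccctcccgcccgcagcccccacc
A further Tead3 promoter held the motif at 123 and 114 bases before its start, and that of Ankrd1 at 210 and 123 bases. Such pairs were rarer, since 1.02% of all promoters held the motif at least 2 times. No CATTCC or GGAATG was found in the remaining Tead3 window or in those of Tead2 and Lats2. A match of letters is not a measured binding site.

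Among the 9 tested genes 1 was higher in the libraries labelled Axin2+ (Tead4) and 4 were lower (Wwtr1, Tead2, Tead3 and Lats2). Over all 16896 genes tested, 14.5% were higher, 12.8% were lower and 27.3% moved in either direction, at a Benjamini-Hochberg adjusted p under 0.05 in edgeR's quasi-likelihood test. The median log2 fold change of the 9 genes was -0.38, beside -0.0077 for all genes tested. In the text a fold change is the level in the libraries labelled Axin2+ over that in those labelled Axin2-, errors of log2 fold changes are standard errors, and levels are CPM scaled by TMM factors.

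**Figure D1:**
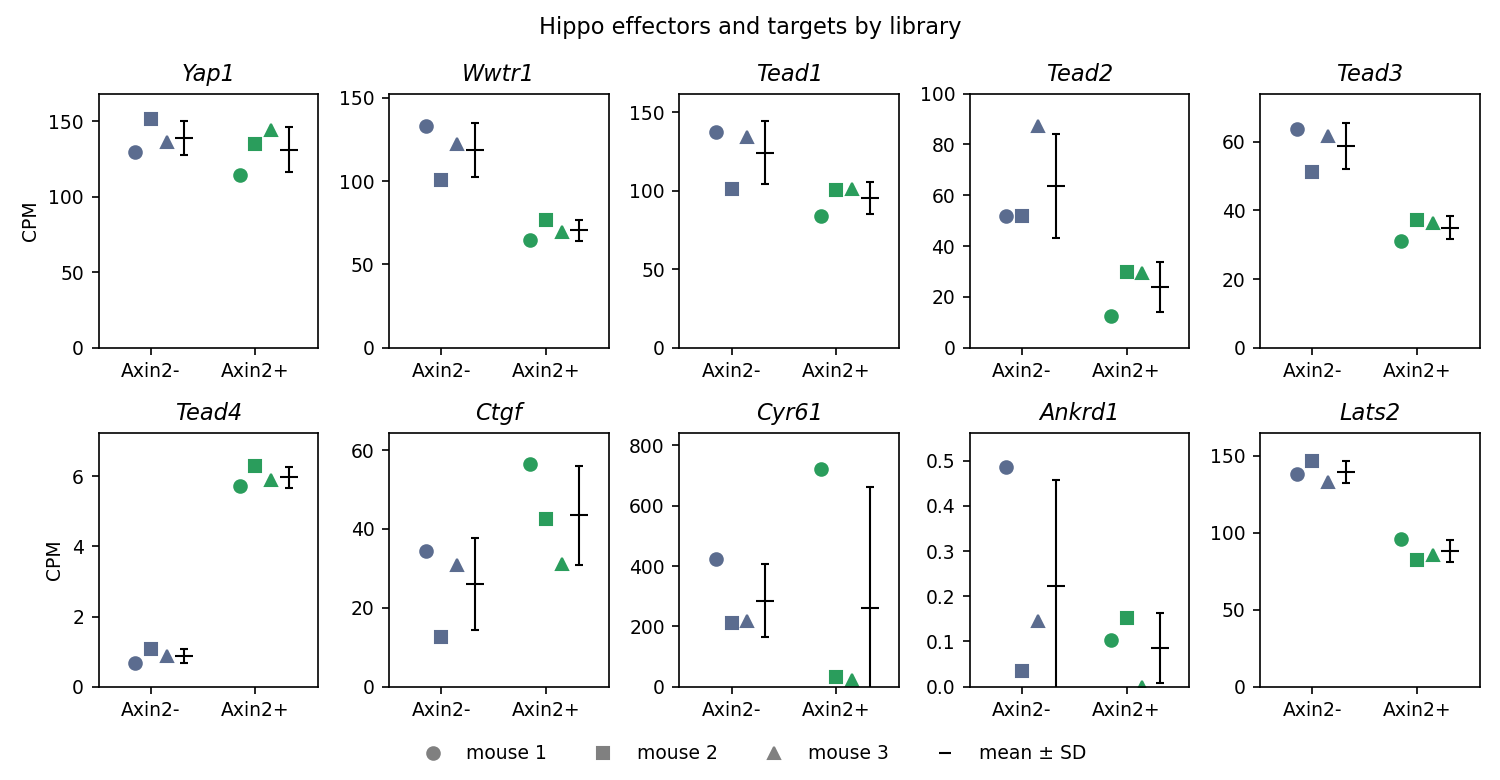
CPM of each of the 10 genes in the 6 libraries, with the marker shape giving the mouse and the horizontal bar and whisker the mean ± SD of a fraction, drawn down to 0 at most. Tead4 stands between 5.71 and 6.31 CPM in the libraries labelled Axin2+ and at or below 1.07 CPM in the others, and Cyr61 reaches 723 CPM in 1 library labelled Axin2+ but 32.2 and 23.5 CPM in the other two.

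Of the coactivators, Wwtr1 was lower in the libraries labelled Axin2+ and Yap1 did not pass. Wwtr1 (ENSMUSG00000027803, chromosome 3, 57455649 to 57575910, minus strand, GRCm38) stood at 133, 101 and 122 CPM in the libraries labelled Axin2- of mice 1 to 3 and at 64.8, 77 and 69.6 CPM in those labelled Axin2+. The fractions did not overlap, so the level was necessarily lower in the Axin2+ fraction of each mouse. Wwtr1 was 1.68-fold lower (log2 fold change -0.75 ± 0.14, adjusted p = 0.00817, edgeR). Leaving out any single library kept this call, but with both libraries of mouse 1 or of mouse 3 left out the adjusted p in edgeR was 0.0706 and 0.0723.

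Yap1 (ENSMUSG00000053110, chromosome 9, 7931999 to 8004596, minus strand) stood at 129.6, 151 and 136 CPM in the libraries labelled Axin2- and at 115, 135 and 144 CPM in those labelled Axin2+. These ranges overlapped. The log2 fold change was -0.083 ± 0.13 with a 95% interval of -0.38 to 0.22 (adjusted p = 0.667, edgeR), an interval that does not reach the estimate for Wwtr1. Its sign turned to 0.087 when libraries were scaled by their totals alone. The log2 ratio of Wwtr1 to Yap1 per kilobase of exon, which needs no scaling between libraries, was 0.72 ± 0.32 in the libraries labelled Axin2- and 0.061 ± 0.13 in those labelled Axin2+ (SD, n = 3 each). With the longest transcript as length these means were -0.064 and -0.72. The sign of the ratio thus depends on the length used, while its difference between the fractions does not. The difference of -0.66 had p = 0.1 in an exact two-sided permutation test, the smallest that 3 against 3 libraries allow. After adjustment over 10 ratios and shares the p of this test was 0.125. The 10 include paralog ratios added after their values were seen, which makes the adjusted value smaller. In the ratio of Wwtr1 to Yap1 the fractions did not overlap, so it necessarily fell in 3 of 3 mice.

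**Figure D2:**
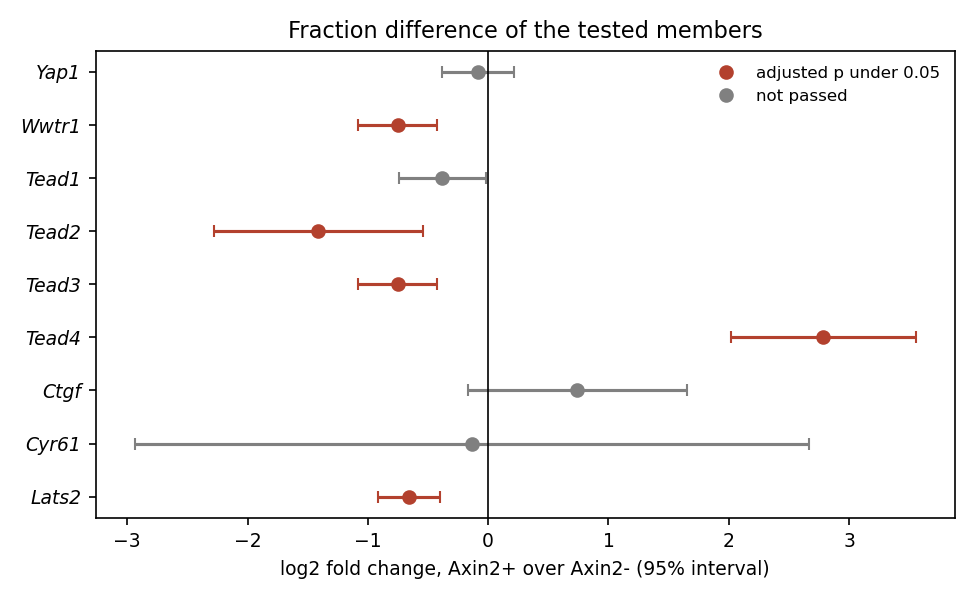
Log2 fold change of the 9 tested genes, libraries labelled Axin2+ over those labelled Axin2-, with the 95% interval of the edgeR fit, not adjusted for the number of genes. Tead4 lies at 2.78, Wwtr1, Tead2, Tead3 and Lats2 lie below 0, and the interval of Cyr61 runs from -2.94 to 2.67.

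The TEAD genes encode the DNA-binding partners, and they did not move together. Tead4, whose protein is best known from the trophectoderm of the early embryo (ENSMUSG00000030353, chromosome 6, 128224288 to 128300823, minus strand), had 34, 61 and 42 reads in the libraries labelled Axin2- and 331, 334 and 317 reads in those labelled Axin2+. These counts are 0.661, 1.07 and 0.865 CPM against 5.71, 6.31 and 5.9 CPM. The fractions lay far apart, and the libraries labelled Axin2+ lay close together. Tead4 was 6.89-fold higher (log2 fold change 2.78 ± 0.33, adjusted p = 0.00141, edgeR), and it passed in each of 15 alternative analyses, between 2.65 and 2.97. In the authors' deposited table its log2 fold change was 2.78 with an FDR of 0.00137.

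Tead3 (ENSMUSG00000002249, chromosome 17, 28331671 to 28350817, minus strand) stood at 63.7, 51.2 and 61.8 CPM in the libraries labelled Axin2- and at 31.1, 37.3 and 36.5 CPM in those labelled Axin2+. Every library labelled Axin2+ was below every other. Tead3 was 1.68-fold lower (log2 fold change -0.75 ± 0.14, adjusted p = 0.00849, edgeR), and the adjusted p became 0.0736 and 0.0651 without both libraries of mouse 1 or mouse 3. Tead2 (ENSMUSG00000030796, chromosome 7, 45215753 to 45233644, plus strand) stood at 52, 51.6 and 87.2 CPM against 12.6, 29.7 and 29.4 CPM. The highest was mouse 3 on the Axin2- side and the lowest mouse 1 on the Axin2+ side, again without overlap. Tead2 was 2.66-fold lower (log2 fold change -1.41 ± 0.37, adjusted p = 0.0296, edgeR). The call was lost on leaving out mouse 1 (adjusted p = 0.0555) or mouse 3 (0.0949) from the Axin2- side, mouse 2 (0.0572) from the Axin2+ side, or mouse 2 (0.0944) or mouse 3 (0.108) from both, all in edgeR. Tead2 overlaps Cd37, a leukocyte gene, which was at 7.12, 2.41 and 6.26 CPM against 14.5, 8.1 and 2.44 CPM. Of the 50-base words in Tead2 transcripts 0.0198% also occur in another annotated gene. The part of Cd37 in the Tead2 count was not tested.

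Tead1 (ENSMUSG00000055320, chromosome 7, 112679318 to 112906807, plus strand) stood at 137, 101 and 134 CPM in the libraries labelled Axin2- and at 83.7, 101 and 101 CPM in those labelled Axin2+. The fractions met at the mouse 2 library labelled Axin2-, and Tead1 did not pass (log2 fold change -0.38 ± 0.15, adjusted p = 0.105, edgeR). Without that library the adjusted p in edgeR was 0.0365 and the log2 fold change -0.51. Of 15 alternative analyses this was the only 1 in which Tead1 passed, and it leaves out the library at which the fractions met. Tead1, Tead2 and Tead3 kept a negative sign under each of the 3 other scalings tried, and Tead4 a positive one.

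Because the 4 genes were measured in the same libraries, their make-up can be read within each library as shares of their summed CPM per kilobase. Tead4 made up 0.791 ± 0.297% of the TEAD transcripts in the libraries labelled Axin2- and 8.96 ± 1.42% in those labelled Axin2+ (SD, n = 3 each). The share of Tead2 was 41.7 ± 6.56% and 25.6 ± 7.03%, and that of Tead1 29.3 ± 3.41% and 37.6 ± 3.08%. For these 3 shares the fractions did not overlap, and each difference had p = 0.1 in the exact permutation test, 0.125 adjusted over the same 10. How often shares of other genes separate in this way was not counted. The share of Tead3 was 28.2 ± 3.32% and 27.9 ± 2.56% (p = 0.9, exact permutation test), and the sign of its difference of -0.33 percentage points changed with the length used.

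**Figure D3:**
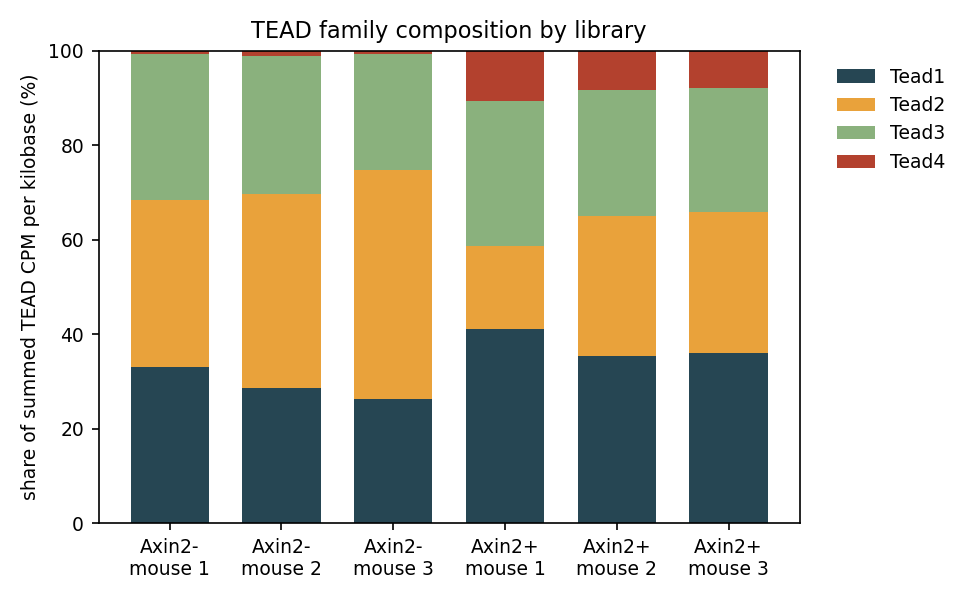
Share of Tead1, Tead2, Tead3 and Tead4 in their summed CPM per kilobase of exon (percent), 1 stacked bar per library. The Tead4 segment is 0.599 to 1.13% in the libraries labelled Axin2- and 7.93 to 10.6% in those labelled Axin2+, while the Tead2 segment is smaller in the latter.

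Of the 3 target genes Ctgf and Cyr61 did not pass with all libraries and Ankrd1 was not tested. Cyr61 (also Ccn1, ENSMUSG00000028195, chromosome 3, 145646976 to 145649981, minus strand) encodes a secreted matrix protein and is a rapid target of YAP and TAZ. It stood at 425, 212 and 218 CPM in the libraries labelled Axin2- and at 723, 32.2 and 23.5 CPM in those labelled Axin2+. The mouse 1 library labelled Axin2+ was the highest of all 6, and the other two of its fraction were the lowest. With all libraries the log2 fold change was -0.13 ± 1.19 (adjusted p = 0.945, edgeR). Without the mouse 1 library labelled Axin2+, Cyr61 was 10.2-fold lower in that fraction (log2 fold change -3.35 ± 0.38, adjusted p = 0.00185, edgeR), at a background of 22.1% of genes moving in either direction. Cyr61 passed in 1 of 6 omissions of a library, which is this one. The library left out is the one in which Cyr61 stood highest, so this result follows in part from that choice. In that library Cyr61 was 26-fold above the mean of the other two, and only 9 of 11769 genes with a mean of at least 5 CPM (0.0765%) stood out at least as much.

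Genes that respond within minutes to growth factors and other stimuli, called immediate early genes, were higher in the same library than in the other two of its fraction, by 1.52-fold (Ier2) to 15.4-fold (Atf3). For Ier2 9.07% of genes with a mean of at least 5 CPM stood out at least as much and for Jun (2.16-fold) 3.99%, against 0.153% for Atf3. Atf3, a stress-induced transcription factor, was at 426, 429 and 471 CPM in the libraries labelled Axin2- and at 500.1, 33 and 32 CPM in those labelled Axin2+. Dusp1, a phosphatase of MAP kinases, was at 360.0, 267 and 269 against 619, 87.8 and 80.6 CPM, and Fos, a subunit of AP-1, at 3682, 4690.3 and 3219 against 2389, 469 and 529 CPM. These names were chosen after the values of Cyr61 were seen. Of 8 such genes 3 were lower with all libraries (Egr1, Junb and Ier2), and 8 were lower without the mouse 1 library labelled Axin2+ (median log2 fold change -1.29 and -2.48). Among all genes tested 12.8% were lower with all libraries, and 1911 of 17325 without that one. The library left out is the one in which these genes stood high, so the count without it follows in part from that choice. The summed level of the 8 genes was 14888 to 19925 CPM in the libraries labelled Axin2- and 3270 to 11060 CPM in those labelled Axin2+. Their part in the level of Cyr61 was not tested.

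**Figure D4:**
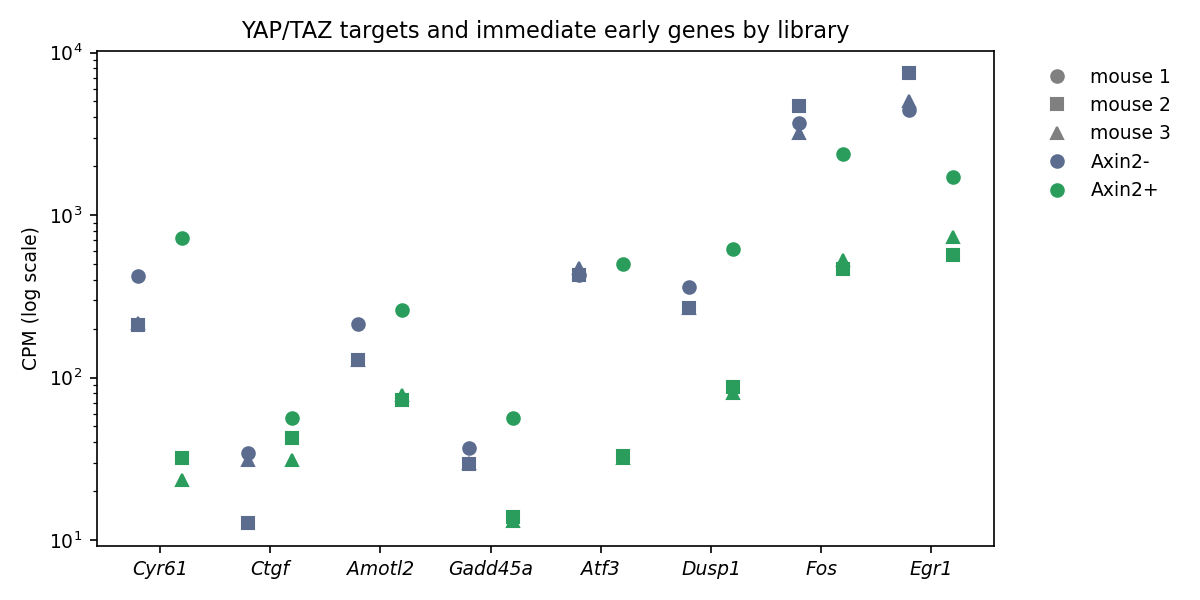
CPM on a log scale of YAP and TAZ target genes and immediate early genes in each library, with colour giving the fraction and marker shape the mouse. For Cyr61, Atf3 and Dusp1 the mouse 1 library labelled Axin2+ lies above all others, and those of mice 2 and 3 lie below all libraries labelled Axin2-.

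Ctgf (also Ccn2, ENSMUSG00000019997, chromosome 10, 24595442 to 24598683, plus strand), a paralog of Cyr61 and the most used readout of YAP activity, stood at 34.3, 12.7 and 31 CPM in the libraries labelled Axin2- and at 56.4, 42.6 and 31.2 CPM in those labelled Axin2+. It was higher in the Axin2+ fraction of 3 of 3 mice, with fractions that overlapped narrowly. The log2 fold change of 0.74 ± 0.39 did not pass (95% interval -0.17 to 1.65, adjusted p = 0.197, edgeR), nor did it in any of 15 alternatives. Of its 50-base words 17.2% also occur in another annotated gene, so part of its reads could be assigned elsewhere. The log2 ratio of Ctgf to Cyr61 per kilobase was -4.13, -4.56 and -3.32 in the libraries labelled Axin2- and -4.18, -0.098 and -0.094 in those labelled Axin2+ (p = 0.3, exact permutation test). Per kilobase of exon Cyr61 was thus the more abundant in each library, by little in those labelled Axin2+ of mice 2 and 3. In these libraries Ctgf had the higher CPM (42.6 and 31.2 against 32.2 and 23.5), so their order depends on the length used. With the longest transcript as length the mean log2 ratio in the libraries labelled Axin2+ was -1.26 in place of -1.46.

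Ankrd1 (ENSMUSG00000024803, chromosome 19, 36111961 to 36120099, minus strand), a cardiac ankyrin-repeat protein gene used as a YAP reporter, was near the limit of detection. It had 25, 2 and 7 reads in the libraries labelled Axin2- and 6, 8 and 0 reads in those labelled Axin2+. Summed and scaled, the ratio was 0.393 with a 95% interval of 0.195 to 0.752 that covers counting error only, and 25 of the 34 reads of the Axin2- fraction came from mouse 1. With no filter on low counts the log2 fold change was -1.35 ± 1.51 (adjusted p = 0.555, edgeR). The remaining members of the CCN family, to which Ctgf and Cyr61 belong, were Nov at 52.8, 7.06 and 10.5 against 3.23, 6.04 and 4.75 CPM and Wisp1 at 13.4, 2.59 and 8.53 against 8.92, 3.66 and 7.37 CPM. Wisp2 had 6 and 6 reads in the fractions and Wisp3 14 and 0. Of the 4 tested CCN genes 0 passed in edgeR, with a median log2 fold change of -0.21. In that fit 1 of them had an unadjusted p under 0.05 (Nov), and DESeq2 called 1.

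Lats2 (ENSMUSG00000021959, chromosome 14, 57689662 to 57758388, minus strand) encodes a kinase that phosphorylates YAP and TAZ. It stood at 138, 147 and 133 CPM in the libraries labelled Axin2- and at 96.1, 82.4 and 85.8 CPM in those labelled Axin2+. The fractions did not overlap, with an SD of 7.05 and 7.11 CPM. Lats2 was 1.58-fold lower (log2 fold change -0.66 ± 0.11, adjusted p = 0.00556, edgeR), and the adjusted p was 0.0773 without both libraries of mouse 2. The gene overlaps the annotated protein-coding gene Gm49361, and 41.2% of its 50-base words occur in another gene, so its count is uncertain. Its paralog Lats1 stood at 126, 141 and 121 against 125, 131 and 129 CPM (log2 fold change -0.014, 95% interval -0.26 to 0.24).

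The kinase relay as a whole, Lats1 and Lats2 included, was mixed, with 4 of 16 genes higher, 3 lower (Lats2, Stk3 and Wwc2) and a median log2 fold change of 0.073. Beside it, 14.5% of all genes tested were higher and 12.8% lower. Wwc1 (KIBRA), a scaffold that activates LATS at cell junctions, stood at 12, 19.96 and 18.3 CPM in the libraries labelled Axin2- and at 164, 195 and 181 CPM in those labelled Axin2+. It was 10.7-fold higher (log2 fold change 3.42 ± 0.21, adjusted p = 0.000239, edgeR), the largest fold change in the relay list. The MST kinase genes moved in opposite directions: Stk4 (MST1) was higher (log2 fold change 0.86, adjusted p = 0.0115) and Stk3 (MST2) lower (-0.63, adjusted p = 0.0131), both by edgeR. Nf2, encoding the junction protein merlin, rose by 0.48 on the log2 scale (adjusted p = 0.015, edgeR), and Taok3, a kinase upstream of MST, by 0.59 (adjusted p = 0.0207, edgeR). Nf2 kept its call in 4 of 6 omissions of a library and Taok3 in 2 of 6. Wwc2 was lower by a log2 fold change of -0.33 (adjusted p = 0.0477, edgeR), a call that no omission of a single library kept. Omitting mouse 1 from the Axin2- side or mouse 2 from the Axin2+ side took the calls of the list from 7 to 4. Of the genes that did not pass, Taok1 (252 and 264 CPM on average) and Map4k4 (241 and 190.3 CPM) had the most reads.

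Proteins of junctions and polarity bind or restrain YAP and TAZ. Against 14.5% higher and 12.8% lower among all genes, 6 of 22 of their genes were higher and 4 lower (median log2 fold change 0.31). Most of the higher ones belong to the apical and junctional sets that epithelia use. Crb3 (Crumbs) was at 0.583, 1.33 and 1.79 against 11.2, 10.04 and 10.4 CPM, a log2 fold change of 3.10 ± 0.43 (adjusted p = 0.00262, edgeR). Llgl2, a basolateral polarity gene, was at 9.88, 10.8 and 9.7 against 93.4, 87.5 and 63.7 CPM, a log2 fold change of 3.01 ± 0.18 (adjusted p = 0.000222, edgeR). Inadl (PATJ) rose by 1.58 and Mpp5 (PALS1) by 0.67 on the log2 scale. Ptpn14, a phosphatase that binds YAP, rose by 1.05 (adjusted p = 0.0338, edgeR) and lost its call in 3 of 6 omissions of a library. The lower genes included Fat4 and Dchs1, which encode a receptor and ligand pair of giant cadherins: Fat4 was at 217, 239 and 283 against 44.2, 99.9 and 82.3 CPM and Dchs1 at 298, 329 and 269 against 49.5, 103 and 120.2 CPM. Their log2 fold changes were -1.71 ± 0.29 (adjusted p = 0.00638) and -1.72 ± 0.31 (adjusted p = 0.00808), by edgeR. Frmd6 was lower by a log2 fold change of -1.61 and Amotl1, an angiomotin that holds YAP at junctions, by -0.75, which did not pass with the replicate block (adjusted p = 0.0607, edgeR). Fat1 (423 and 511 CPM on average) and Tjp1 (303 and 403 CPM) had the most reads among those that did not pass. Epithelial markers were higher and smooth muscle and fibroblast markers lower in the same libraries, and their part in these changes was not tested.

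A published set of 22 YAP and TAZ target genes, which holds Ctgf, Cyr61, Ankrd1 and Lats2, was read as a wider measure. Of the 20 tested, 4 were higher and 8 lower (14.5% and 12.8% over all genes tested), with a median log2 fold change of -0.20. The lower genes included Igfbp3, which binds insulin-like growth factors, at 485, 411 and 888 against 26.8, 30.7 and 27.3 CPM (log2 fold change -4.39 ± 0.32, adjusted p = 0.000325, edgeR). The receptor tyrosine kinase gene Axl was at 572, 556 and 525 against 218, 248 and 252 CPM, a log2 fold change of -1.20 ± 0.13 (adjusted p = 0.00094, edgeR). Ccdc80 (-1.76), Tgfb2 (-1.46) and Arhgef17 (-0.97) followed on the log2 scale, and Rbms3, Asap1 and Lats2 make up the 8. The higher genes were Nt5e (CD73), at 7.49, 13.2 and 11.1 against 35, 46.2 and 31.8 CPM, Dock5, a Rac activator, Nuak2 and Ptpn14, with log2 fold changes of 1.83, 1.11, 1.43 and 1.05. Nuak2 kept its call in 1 of 6 omissions of a library. Stromal fibroblast and smooth muscle markers were lower in the same libraries, and their part in these changes was not tested.

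Leaving out the mouse 1 library labelled Axin2+ gave 2 higher and 11 lower genes of 20, with a median log2 fold change of -0.74. Of all 17325 genes then tested, 1914 were higher and 1911 lower. Each other omission of a single library gave 8 lower genes of the set. The library left out is the one in which Cyr61, Amotl2 and Gadd45a stood highest. The count and the values of these genes without it thus follow in part from that choice. Amotl2, an angiomotin, was at 214, 127 and 129 against 262, 73 and 78.1 CPM, and its log2 fold change of -0.19 (adjusted p = 0.816) became -1.05 (adjusted p = 0.0263, edgeR). Gadd45a, a stress-response gene named here after its values were seen, was at 36.7, 29.6 and 29.8 against 56, 13.8 and 13 CPM, and its log2 fold change of -0.21 became -1.25 (adjusted p = 0.00424, edgeR). With mouse 1 omitted from the Axin2- side, or mouse 2 or mouse 3 from the Axin2+ side, the median of the set was 0.085, 0.12 and 0.11, so its sign depends on single libraries.

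**Figure D5:**
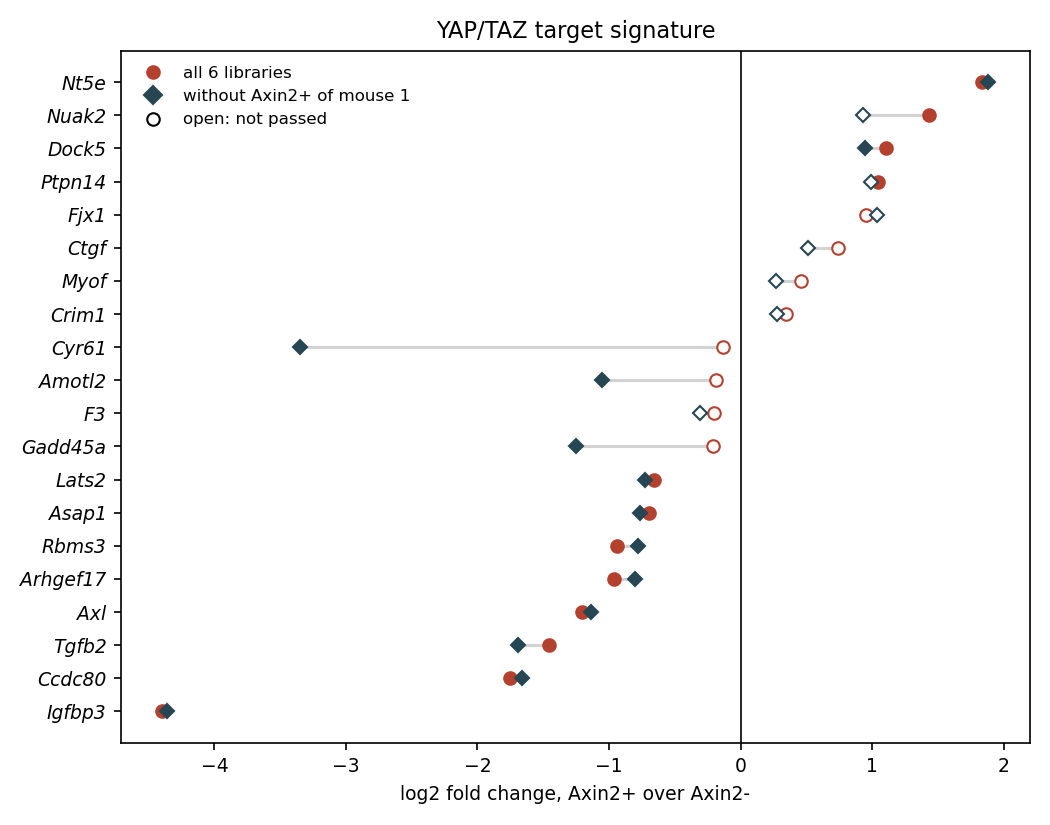
Log2 fold change of each tested gene of the 22-gene set with all 6 libraries (circles) and without the mouse 1 library labelled Axin2+ (diamonds), with open symbols where the gene did not pass. Cyr61 moves from -0.13 to -3.35 and Gadd45a from -0.21 to -1.25, while Igfbp3 and Axl are below 0 in both.

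Of 9 tested nuclear partners other than TEADs 1 was higher (Runx1) and 1 lower (Smad3), with a median log2 fold change of 0.024. For this list and the next, the share over all genes tested was 14.5% higher and 12.8% lower, or 27.3% in either direction. Runx1 was at 21.8, 16.1 and 23.8 against 75.9, 46.2 and 35.9 CPM (log2 fold change 1.36 ± 0.30, adjusted p = 0.0155, edgeR). Smad3, which carries TGF-beta signals, was at 125, 121 and 114 against 87.6, 102 and 80.0 CPM (log2 fold change -0.41, adjusted p = 0.0466, edgeR), and this call was lost in each omission of a library and with the replicate block (adjusted p = 0.0592). Ctnnb1 (beta-catenin, 372 and 538 CPM on average) had the most reads among those that did not pass. Vgll1 had 8 and 0 reads in the fractions, and Vgll2 and Tbx5 had 0 in both. Of the STRIPAK complex, which removes phosphate from MST kinases, 1 gene of 13 was higher (Sike1, log2 fold change 0.60) and 1 lower (Strn3, -0.47). Sike1 passed in 5 of 6 omissions of a library and Strn3 in 1 of 6. Ppp2r1a (143 and 159.6 CPM on average), the scaffold subunit of the phosphatase, and Slmap (163 and 134 CPM) did not pass.

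Of 14 genes of upstream G protein and mechanical inputs 2 were higher and 4 lower (median log2 fold change -0.15). Over all genes tested these shares were 14.5% and 12.8%. The lower genes of the list included 3 receptor genes. Lpar1, the receptor of lysophosphatidic acid, was at 120.4, 123 and 94.2 against 21.4, 38.3 and 44.2 CPM (log2 fold change -1.70 ± 0.27, adjusted p = 0.00485, edgeR). S1pr2, a sphingosine 1-phosphate receptor, was at 33.5, 30.3 and 27 against 15.9, 12 and 14.8 CPM (log2 fold change -1.09 ± 0.17, adjusted p = 0.00398, edgeR). F2r, the thrombin receptor, had a log2 fold change of -1.46 (adjusted p = 0.0325, or 0.0576 with the replicate block, edgeR), and it passed in 3 of 6 omissions of a library. Mkl2 (MRTF-B), a cofactor of the serum response factor, rose by 1.11 (92.7, 96.6 and 89 against 191, 218 and 192 CPM, adjusted p = 0.000761, edgeR). The calls of Gna12 (log2 fold change 0.65) and Gnaq (-0.37) were lost with the replicate block (adjusted p = 0.0642 and 0.0744, edgeR) and held in 1 and 0 of 6 omissions of a library, while Srf passed with it (adjusted p = 0.0483) and not without it (0.171). Calls in this list went from 6 to 3 when mouse 1 or mouse 2 was omitted from the Axin2- side, or mouse 2 from the Axin2+ side. Rhoa (268 and 287 CPM) and Rock1 (207 and 190.0 CPM) had the most reads among those that did not pass.

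Per kilobase of exon, which allows genes to be compared, Cyr61 led in the libraries labelled Axin2- (141 ± 60 CPM per kilobase), followed by Wwtr1 (24.8 ± 3.45), Lats2 (19.98 ± 1.01), Yap1 (15 ± 1.2), Tead2 (13.3 ± 4.27), Tead1 (9.16 ± 1.47), Ctgf (9.08 ± 4.06), Tead3 (8.77 ± 1.01), Tead4 (0.24 ± 0.0563) and Ankrd1 (0.0768 ± 0.0815). In the libraries labelled Axin2+ the order was Cyr61 (128.6 ± 199 CPM per kilobase), Ctgf (15.2 ± 4.41), Wwtr1 (14.7 ± 1.28), Yap1 (14.2 ± 1.63), Lats2 (12.6 ± 1.02), Tead1 (7.03 ± 0.74), Tead3 (5.2 ± 0.505), Tead2 (4.99 ± 2.05), Tead4 (1.66 ± 0.0846) and Ankrd1 (0.0294 ± 0.0268; SD, n = 3 throughout). Neighbours from Yap1 down to Tead3 in the first order, and from Cyr61 down to Lats2 and from Tead3 to Tead2 in the second, differed by less than the larger of their SDs. With the longest transcript as length, Wwtr1 ranked below Lats2 and Yap1 in both fractions.

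Across the 6 libraries the gene whose pattern was second nearest to that of Wwtr1, among 11083 genes with a mean of at least 5 CPM and a name other than that of a predicted gene (Gm or Rik), was Tead3. The root mean square difference of their gene-centred log2 CPM was 0.0482, and it was 0.036 for Phactr1 and 0.0769 for Pbxip1. The nearest to Yap1 were Rsrc1 (0.0331), Nfyb (0.0351) and L3mbtl3 (0.0351), and the nearest to Tead1 were Lamb2 (0.0635), Dgcr8 (0.067) and Dgkq (0.071). These are descriptions over 6 libraries that share 2 fractions and 3 mice.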

How the data were processed

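The values are raw counts: per the labels and the table's header, the authors deposited 1 whole number of reads for each gene and library, with library sums of 49714402 to 59597315. Tools listed in the submitters' processing notes are STAR 2.5.3a, featureCounts 1.5.3 (Subread), bcl2fastq 2.20.0.422, StringTie 1.3.3 and edgeR 3.22.5, and the listed genome is mm10. Which annotation was used, and whether strand was, is not given in the sources used here, so reads of overlapping genes cannot be told apart with certainty. The authors' deposited comparison table holds a log2 fold change and an FDR (adjusted p-value) per gene.

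Counts were tested in R 4.3.3 with edgeR 4.0.16: filterByExpr, TMM factors, a robust quasi-likelihood F test between fractions, and Benjamini-Hochberg adjustment over 16896 genes, with a threshold of 0.05. Shares and ratios, per kilobase of the union of exons in GENCODE M21 (GRCm38, the assembly mm10 names), were compared with exact permutation tests over libraries (scipy 1.17.1). Intervals from counts cover counting error only.

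Members, gene lists and the rule for named genes were chosen with earlier results of these data known. The rule takes all 10 members and the CCN family, from each other list up to 5 genes per direction with the smallest p and the 2 with the highest mean CPM that did not pass, and for Yap1, Wwtr1 and Tead1 the 3 nearest patterns. The table held all 163 listed genes, 8 of them under another symbol. Immediate early genes, and ratios of other paralogs, were added after the data were seen.

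The pairing used here follows the labels' mouse numbers, but the labels also speak of pooled cells, so it is not certain. Across genes, the correlation of same-mouse deviations from their fraction's mean was 0.32, 0.034 and -0.12 for mice 1 to 3, and up to 0.32 for different mice. Alternatives were DESeq2 1.42.0, library-size and upper-quartile scaling, other count filters, the replicate block, transcript length and leaving out each library or mouse.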

Additional observations from a re-analysis of the deposited data

How the results depend on the processing

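Scaling libraries by their totals shifted the median log2 fold change of all genes by 0.17 and gave 3255 higher and 1573 lower genes in place of 2447 and 2171, and it turned the sign for Yap1 (0.087) and Cyr61 (0.0076), neither of which passed. The replicate block gave 2085 higher and 1869 lower genes and changed no call among the 9 tested members, although the log2 fold change of Cyr61 became -1.86 (adjusted p = 0.202, edgeR). In the other pathway lists it ended the calls of Wwc2, Amotl1, Smad3, Gna12, Gnaq and F2r and gave one for Srf. Among cell markers it ended those of Pecam1, Vwf, Csf1r, Lyz2 and Cd68 (adjusted p 0.0548 to 0.106, edgeR) and gave one for Cdh5, as lower. Nuclear partners had 4 calls with DESeq2, 1 with no low-count filter and 1 with the replicate block, and DESeq2 called 1 CCN gene. With transcript length the difference in the Tead3 share was 0.19 percentage points. Leaving out a library or a mouse gave 1018 to 2304 higher and 693 to 1911 lower genes over all genes. It gave 1 to 5 lower members, 1 to 7 calls in the kinase relay, 5 to 10 for junctions, 0 to 2 for nuclear partners, 6 to 13 for the target set, 0 to 2 for STRIPAK, 1 to 5 for upstream inputs and 0 to 1 for CCN genes. Among log2 fold changes it gave -0.15 to 0.0072 for Yap1, -3.35 to 0.41 for Cyr61, -1.05 to 0.13 for Amotl2, -1.25 to 0.13 for Gadd45a and -1.82 to 0.25 for Dusp1, and for the Tead3 share -2.17 to 1.05 percentage points. The sign of Tead1, Tead2, Tead3, Tead4, Wwtr1, Lats2 and Ctgf held in all 15 alternatives. The causes were not tested. Tead4 and Ankrd1 rest on the fewest reads of the members.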

Other observations

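Paralog pairs elsewhere in the pathway were compared within each library after their values had been seen, as log2 ratios per kilobase of exon. The ratio of Wwc1 to Wwc2, both LATS scaffolds of the KIBRA family, was -1.01, -0.26 and -0.52 in the libraries labelled Axin2- and 3.06, 3.32 and 3.19 in those labelled Axin2+. The ratio of Llgl2 to Llgl1, both basolateral polarity genes, was -2.59, -2.51 and -2.53 against 0.49, 0.45 and -0.037. For the MST kinases, Stk4 over Stk3 was -0.29, -0.80 and -0.38 against 1.19, 0.86 and 0.94, and for the LATS kinases, Lats2 over Lats1 was 0.20, 0.13 and 0.20 against -0.31, -0.60 and -0.52. In each of the 4 pairs the fractions did not overlap, from which it follows that 3 of 3 mice moved the same way. Each had p = 0.1 in an exact two-sided permutation test, the smallest possible with 3 against 3 libraries (0.125 adjusted over 10). How often pairs of other genes do the same was not counted, and pairs picked by their values do not describe paralogs in general.

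Vgll3, a TEAD cofactor, stood at 31.8, 55.9 and 15.5 CPM in the libraries labelled Axin2- and at 5.87, 9.7 and 16.7 CPM in those labelled Axin2+ (log2 fold change -1.68 ± 0.53, adjusted p = 0.0553, edgeR), while Vgll4, a repressor of TEAD, stood at 30.1, 41.9 and 37.1 against 36.1, 40.9 and 36.1 CPM. Both were chosen after their values were seen.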
